A study of Mus musculus with 2 samples.

Results

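The 6 genes described here, Stat2, Stat3, Stat4, Stat5a, Stat5b and Stat6, belong to the STAT family (signal transducers and activators of transcription). They were taken by symbol from the 24346 symbols of each deposited table, and all 6 were found in both. RNA was sequenced from CD4+ T cells sorted out of mouse spleen at day 14 in 2 libraries. The first came from HFD-MI animals given probucol, an antioxidant drug that lowers cholesterol, and the other from HFD-MI animals without treatment. HFD-MI, which the labels do not spell out, was thus common to both groups. HypoE, a term in both file headers, is also left unexplained. The labels give neither the genotype nor the number of animals behind a library. The unit is FPKM, the number of fragments scaled to transcript length in kilobases and to library size, so levels of different genes can be set side by side within a library.

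STAT proteins wait in the cytoplasm, are phosphorylated on a tyrosine by JAK kinases bound to cytokine receptors, pair up, and move into the nucleus to bind DNA. In CD4+ T cells different cytokines use different members. Type I interferon acts through STAT2 with its partner IRF9, the interleukin 6, 21 and 23 receptors mainly through STAT3, interleukin 12 through STAT4, interleukins 2 and 7 through STAT5A and STAT5B, and interleukin 4 through STAT6. Their activity is set by phosphorylation, which RNA levels do not measure.

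Each group had 1 library, so there is no replicate spread and no test between the groups. The only error given is counting error. From steps in the low FPKM values, 1 fragment on a 1 kb transcript was worth 0.1005 FPKM in each library. A 95% counting interval was then derived from the estimated fragments of each gene with the median length of its annotated transcripts. For the STAT genes it was also derived with the longest. Intervals of all other genes rest on the median length alone, and whether they hold 1 may depend on it. The median is short for genes with many small annotated transcripts, which makes its intervals wide. The estimated total was 5.59e+06 fragments with probucol and 5.69e+06 untreated by the median length, and 1.35e+07 in each by the longest. Despite these similar totals, 14289 of the 24346 symbols were above 0 with probucol and 16876 untreated. The part of this difference in the values of genes at low levels was not tested. PCR copies are included, and nothing in these intervals covers differences between animals, sorts or library preparations.

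The sort was checked against its markers. Summed FPKM of 6 T cell genes was 4105 with probucol and 4144 untreated, with 2 genes higher and 4 lower. The 2 CD8 T cell genes summed to 16.1 FPKM with probucol against 19.9 FPKM untreated. Cd8a had 0.139 FPKM with probucol against 0.276 FPKM untreated, so nearly all of this sum came from Cd8b1. The summed level of 8 B cell genes was 61.8 FPKM with probucol and 22.1 FPKM untreated, 2.79 times as high, with all 6 genes that passed a mean of 1 FPKM higher and Pax5 at 0 in both libraries. The 6 erythroid genes found summed to 218 FPKM with probucol against 863 FPKM untreated, all 6 lower with probucol. Natural killer genes summed to 7.78 FPKM with probucol against 18.0 FPKM untreated, with 1 higher and 4 lower of the 5 that passed. Macrophage genes summed to 178 FPKM with probucol against 170 FPKM untreated, 5 higher and 2 lower. Neutrophil genes summed to 1030 FPKM with probucol against 922 FPKM untreated, 5 higher and 1 lower. Dendritic cell genes summed to 2.66 FPKM with probucol against 3.48 FPKM untreated, with Itgax and Clec9a at 0 untreated. Only 1 of them passed, and it was lower. STAT genes are read in many blood cells, and the part of these cells in the STAT values was not tested. In such bulk samples, fewer cells of a type and less RNA per cell cannot be told apart.

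The levels of the 6 genes spanned 9.68-fold with probucol and 8.49-fold untreated. Added together they reached 452 FPKM with probucol and 453 FPKM untreated, so the sum with probucol was 0.997 times the untreated sum. Stat6 led with probucol, followed by Stat3, Stat4, Stat5b, Stat5a and Stat2. Untreated, the order was Stat3, Stat6, Stat4, Stat5b, Stat5a and Stat2, so that the first and second places were exchanged and the other 4 were not. In both libraries the counting interval of every step down this order lay above 1, so no neighbours were level within counting error. The narrowest step untreated was Stat3 over Stat6, 1.13-fold (95% counting interval 1.02 to 1.26). The T cell marker Cd4 had 334 FPKM with probucol against 284 FPKM untreated and Cd3e had 478 FPKM with probucol against 494 FPKM untreated, both above the 6 STAT genes.

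**Figure D1:**
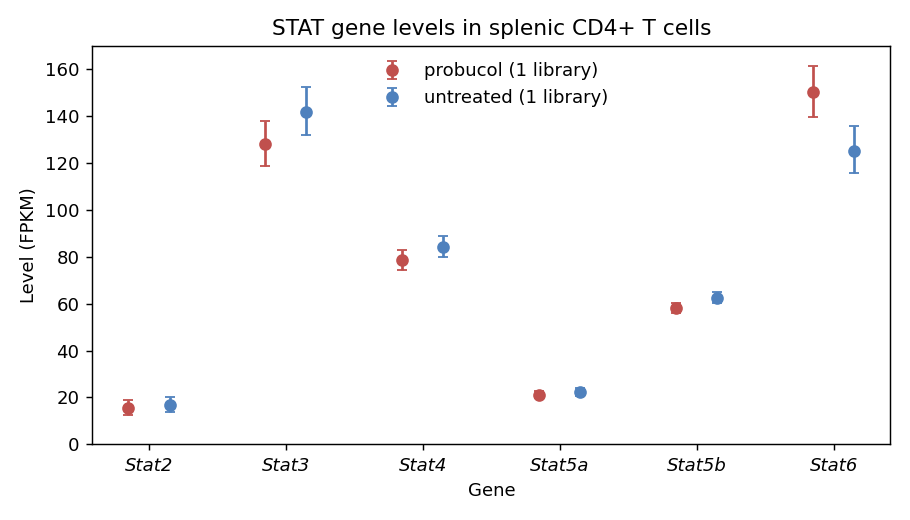
Level in FPKM of each STAT gene, with probucol on the left and untreated on the right of each pair; points are single libraries and bars are 95% counting intervals from the median transcript length. Stat6 is at 150 FPKM with probucol and 125 FPKM untreated, while the other 5 genes are slightly lower with probucol.

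None of the 6 genes differed by 2-fold, and none reached 0.32 in either direction on the log2 scale of FPKM + 1, the smaller threshold used. Of the 10663 genes with a mean of 1 FPKM or more, 3.6% were at least 2-fold apart, and 31.9% were past the smaller threshold, in either direction. Of the STAT genes 5 were lower with probucol and 1, Stat6, was higher, where 47.3% of all genes were lower and 52.7% higher. The median log2 ratio of the 6 genes was -0.10, against 0.02 over all genes. The 5 lower genes lay close together, between 0.903 and 0.952 of their untreated FPKM. All of them fell between the lower and upper quartiles of all genes, -0.18 and 0.23. Stat6, at 0.26, lay just above the upper quartile.

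**Figure D2:**
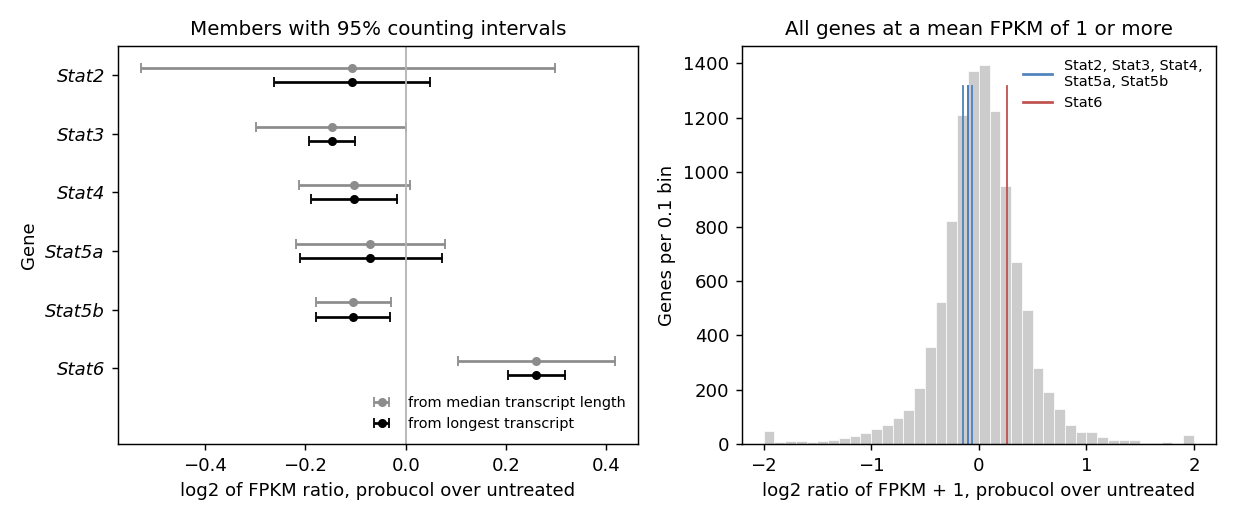
Left, log2 of the FPKM ratio of probucol over untreated for each STAT gene, with 95% counting intervals from the median (grey) and the longest (black) annotated transcript; right, number of genes per bin of log2 ratio of FPKM + 1 over 10663 genes, with the STAT genes as lines and values beyond 2 in either direction put in the end bins. The log2 ratio on FPKM + 1 was 0.26 for Stat6 and between -0.15 and -0.07 for the other 5 genes, inside the bulk of all genes.

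Stat6 (ENSMUSG00000002147, chromosome 10, 127642986 to 127660957, plus strand, from GENCODE release M21 on GRCm38, the assembly also called mm10) is the factor that carries the interleukin 4 and 13 signal and drives Th2 differentiation. It had 150 FPKM with probucol against 125 FPKM untreated, 1.20-fold higher. The counting interval of this ratio was 1.08 to 1.33 by the median transcript length, and 1.15 to 1.247 by the longest, so the difference was larger than counting error by both. Of the genes compared, 77.4% had a lower ratio and 2407 a higher one. Its level exceeded that of 92.9% of the genes with probucol and 91.1% untreated.

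The annotated 3' end of Stat6 overlaps that of Nab2, a corepressor of EGR factors on the opposite strand, by 40 bases. The labels name no stranded counting, so reads of this overlap cannot be told apart. Nab2 had 32.0 FPKM with probucol against 24.3 FPKM untreated, a log2 ratio of 0.38. The part of the overlap in the Stat6 value was not tested. No 50-base word of the Stat6 transcripts was found in transcripts of another gene. The overlap of 40 bases is shorter than such a word, so this search could not show it. The sum of the B cell genes was also higher with probucol (61.8 FPKM with probucol against 22.1 FPKM untreated), and its part in the Stat6 value was not tested.

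Stat3 (ENSMUSG00000004040, chromosome 11, 100885098 to 100939540, minus strand), which transmits the interleukin 6 family and interleukin 21 signals and is required for Th17 differentiation, had 128 FPKM with probucol against 142 FPKM untreated. This was a ratio of 0.903, the lowest of the 6. Its interval just held 1 by the median transcript length (0.813 to 1.0004), which for Stat3 is 749 bases, and was 0.875 to 0.932 by the longest, 6042 bases. Whether the Stat3 difference exceeded counting error thus depended on the transcript length assumed.

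Since Stat6 had the highest and Stat3 the lowest ratio, this pair was the furthest apart between the libraries of the 15 pairs. Within the probucol library the Stat6 level was 1.17 times the Stat3 level (1.06 to 1.30), and within the untreated library 0.883 times (0.793 to 0.982). The ratio of these ratios was 1.33, with an interval of 1.14 to 1.54 by the median and 1.26 to 1.40 by the longest transcript. Stat6 over Stat4 was 1.91 with probucol and 1.49 untreated, a ratio of ratios of 1.29 (1.13 to 1.47). A scaling factor common to all genes of a library cancels in such ratios. Both pairs with Stat6 were picked after their values were seen, so these intervals only describe them.

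**Figure D3:**
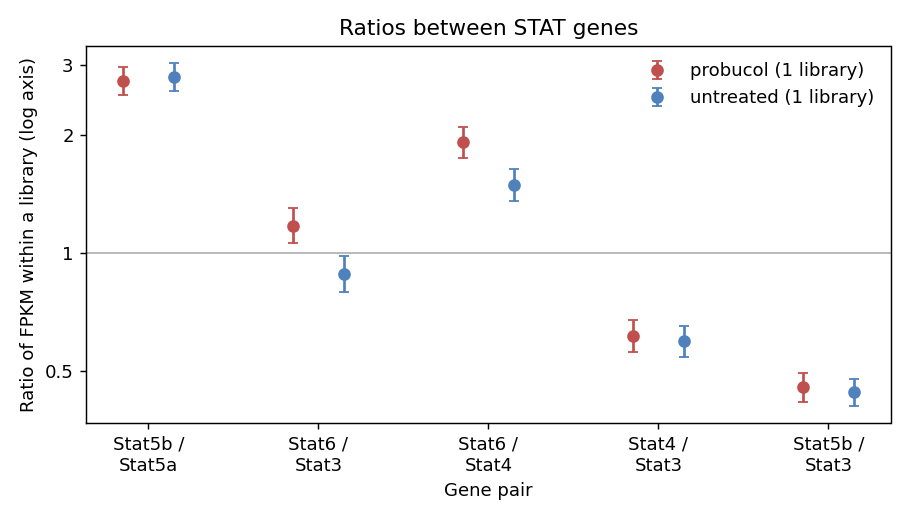
Ratio of FPKM between 2 STAT genes within a library (log axis), probucol left and untreated right; points are single libraries and bars 95% counting intervals from the median transcript length. Stat6 over Stat3 lies above 1 with probucol (1.17) and below 1 untreated (0.883), while Stat5b over Stat5a is 2.74 with probucol and 2.81 untreated.

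Stat4 (ENSMUSG00000062939, chromosome 1, 51987148 to 52107189, plus strand) passes on the interleukin 12 signal that promotes Th1 cells, the helper subset in the title of the series. It had 78.5 FPKM with probucol against 84.3 FPKM untreated, a ratio of 0.931. The interval was 0.862 to 1.01 by the median transcript length and 0.878 to 0.987 by the longest. Stat4 over Stat3 was 0.612 with probucol and 0.594 untreated, and the ratio of these ratios, 1.03 (0.907 to 1.17), did not differ from 1 beyond counting error. Of its 50-base words 21.7% also occur in Gm28177, an annotated gene that overlaps Stat4 on the same strand and is not among the symbols of the tables.

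Stat5b (ENSMUSG00000020919, chromosome 11, 100780731 to 100850724, minus strand) and Stat5a (ENSMUSG00000004043, chromosome 11, 100859351 to 100885169, plus strand) carry the interleukin 2 and 7 signals that support T cell survival and regulatory T cells. They lie head to head, 8626 bases apart, and Stat3 follows directly, its 3' end overlapping that of Stat5a by 72 bases on the opposite strand. Stat5b had 58.1 FPKM with probucol against 62.5 FPKM untreated, a ratio of 0.930 (0.883 to 0.979). This was beyond counting error by either length. Stat5a had 21.2 FPKM with probucol against 22.3 FPKM untreated, a ratio of 0.952 (0.859 to 1.06), not beyond counting error.

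Stat5b exceeded Stat5a in both libraries, 2.74-fold with probucol (2.52 to 2.98) and 2.81-fold untreated (2.59 to 3.04). The ratio of these ratios was 0.976 (0.870 to 1.097), so the balance of the pair did not differ between the libraries beyond counting error. Their coding sequences are the closest of the 15 pairs, with 90.6% identical bases over 2292 aligned, while the other pairs had between 58.3% and 64.8%. Reads from shared stretches could have been divided between the 2 genes in either way. Of the 50-base words in their transcripts, 10.98% of those of Stat5b and 8.21% of those of Stat5a occur in the other gene. The longest identical run covers 324 bases, coding positions 571 to 894 in both, counted from the start codon. Its first 60 bases are printed as a stretch in which reads of the 2 genes are the same, and the window at coding positions 85 to 144, with 19 differing bases in capitals, as the window without gaps in which they differ most (GENCODE release M21, GRCm38).
Stat5a and Stat5b, shared: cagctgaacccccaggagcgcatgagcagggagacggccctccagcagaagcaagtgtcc
Stat5a, 85 to 144: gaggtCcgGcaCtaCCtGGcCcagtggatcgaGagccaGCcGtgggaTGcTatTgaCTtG
Stat5b, 85 to 144: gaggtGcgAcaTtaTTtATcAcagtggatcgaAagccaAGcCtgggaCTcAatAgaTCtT

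Stat2 (ENSMUSG00000040033, chromosome 10, 128270559 to 128292849, plus strand), the STAT of the type I interferon response, had the lowest level of the 6 in both libraries. It had 15.5 FPKM with probucol against 16.7 FPKM untreated, a ratio of 0.928. The interval held 1 by both lengths (0.694 to 1.23 and 0.833 to 1.03), so no difference was detectable at this depth. Stat2 was above 51.1% of the compared genes with probucol and above 53.6% untreated, near the middle of these genes. It lies 609601 bases from Stat6 on the same chromosome.

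Promoter windows from 250 bases before to 50 after the annotated start (RefSeq, GRCm38.p6) were available for all 6 genes, 9 windows in all. The STAT binding motif GAS, TTCNNNGAA, was in 0 of the 9, and in 8.30% of all 32851 windows. The wider spacing TTCNNNNGAA, to which STAT6 also binds, was in 1 of 9 windows and 6.95% of all. The interferon response motif searched, GAAANNGAAA on either strand, was in 2 of 9 windows, those of Stat2 and of the internal start of Stat4, and in 3.44% of all. In the Stat2 promoter the interferon motif starts at position -222 from the transcription start and the TTCNNNNGAA match at -210, with no base in common. In the Stat4 window the match starts at -97. These are matches of letters and not measured binding. The 2 windows with the interferon motif are printed because they hold a match to the pathway of Stat2, with the match in capitals and the strand of the gene.
Stat2, chr10:128270256-128270305, plus strand: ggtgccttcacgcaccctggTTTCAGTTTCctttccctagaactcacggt
Stat4, chr1:52008123-52008172, plus strand: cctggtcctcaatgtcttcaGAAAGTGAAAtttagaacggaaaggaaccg

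The genes around the STATs in their pathway were described with lists of receptors, kinases, inhibitors, partners and target genes. Of 117 such genes, 116 were found and 101 had a mean of 1 FPKM or more. Of these, 0 were at least 2-fold higher and 5 at least 2-fold lower, where 1.62% and 1.98% of all genes were. Past the smaller threshold of 0.32 were 12 higher and 24 lower genes, where 17.8% and 14.1% of all genes were. Their median log2 ratio was -0.01, against 0.02 over all genes. The 5 were the interferon-induced antiviral genes Ifit3, Rsad2 and Ifi44, the interleukin 18 receptor chain Il18rap and the granule protease gene Gzmb. Rsad2 had 0.981 FPKM with probucol against 3.66 FPKM untreated, 3.73-fold lower (2.54 to 5.56). Ifi44 had 1.60 FPKM with probucol against 4.95 FPKM untreated, 3.10-fold lower (1.95 to 5.18). Il18rap had 1.82 FPKM with probucol against 5.33 FPKM untreated, 2.93-fold lower (1.90 to 4.44). At these low levels the log2 ratios on FPKM + 1 were smaller, at -1.23, -1.20 and -1.17. Lists share some members, and no list was tested.

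Upstream of STAT2, both chains of the type I interferon receptor were lower with probucol. Ifnar1 had 22.3 FPKM with probucol against 23.9 FPKM untreated, a ratio of 0.933 (0.786 to 1.11), and Ifnar2 had 62.1 FPKM with probucol against 75.4 FPKM untreated, a ratio of 0.824 (0.735 to 0.923). Irf9, the DNA-binding partner of STAT2, had 76.5 FPKM with probucol against 79.6 FPKM untreated, a ratio of 0.960 (0.896 to 1.03). The levels of STAT2 and IRF9 transcripts were thus within counting error between the libraries, for Irf9 by the median transcript length alone. Among genes that this complex activates, 13 of 14 were lower, Stat2 itself counted, with 3 at least 2-fold lower and 9 past the smaller threshold. Over all genes 47.3% were lower, 1.98% at least 2-fold lower and 14.1% lower past the smaller threshold. The median log2 ratio of the 14 was -0.39, against 0.02 over all genes. Lower with probucol were also the sums of erythroid genes, 218 FPKM with probucol against 863 FPKM untreated, and of natural killer genes, 7.78 FPKM with probucol against 18.0 FPKM untreated, and their part in these values was not tested.

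The interferon-induced RNA-binding protein gene Ifit3 had 4.09 FPKM with probucol against 10.6 FPKM untreated, 2.59-fold lower (1.92 to 3.52). The related Ifit2 was 1.52-fold lower (1.27 to 1.81), and Irf7, which amplifies interferon production, 1.38-fold lower (1.21 to 1.56). The mitochondrial nucleotide kinase gene Cmpk2 stood at 0.594 of its untreated level, with an interval that began at 0.435 and ended below 1. Usp18, which restrains the interferon receptor, had 34.6 FPKM with probucol against 35.6 FPKM untreated, a ratio of 0.972 (0.768 to 1.22). Of the 14, Mx2 alone was above its untreated level, at 1.31 FPKM with probucol against 0.949 FPKM untreated, with an interval that held 1 (0.761 to 2.55). Of the lower genes, Isg15 (0.667 to 1.02), Bst2 (0.820 to 1.02), Mx1 (0.221 to 1.60) and Oasl1 (0.274 to 1.46) also had intervals that held 1. The same was true of Usp18 and Stat2. Mx1 and Oasl1 were among those past the smaller threshold. The intervals of Ifit1, Ifit2, Ifit3, Rsad2, Irf7, Ifi44 and Cmpk2 ended below 1.

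Receptors that act mainly through STAT3 had a median log2 ratio of 0.0024 over 6 genes, 3 higher and 3 lower, none past the smaller threshold. Over all genes 52.7% were higher and 47.3% lower, and 31.9% were past that threshold in either direction. Il27ra, a chain of the interleukin 27 receptor, had 184 FPKM with probucol against 185 FPKM untreated. Il21r had 195 FPKM with probucol against 179 FPKM untreated and Il6st, the shared signalling chain gp130, had 33.6 FPKM with probucol against 33.4 FPKM untreated. Il23r, which sustains Th17 cells, was under the filter at 0.0440 FPKM with probucol against 0.263 FPKM untreated. The T cell targets of STAT3 were also divided, 7 higher and 7 lower of 14, with a median of 0.00098. Socs3, the feedback inhibitor of the interleukin 6 receptor, had 119 FPKM with probucol against 91.9 FPKM untreated, 1.30-fold higher (1.103 to 1.53). Bcl6, the factor of follicular helper cells, was 1.48-fold higher (1.255 to 1.74) and Maf 1.40-fold higher (1.19 to 1.65). Rora, a nuclear receptor gene of Th17 cells, had 4.09 FPKM with probucol against 6.12 FPKM untreated, a ratio of 0.668 with an interval that held 1 (0.425 to 1.04). Batf, an AP-1 factor that works beside IRF4, had 236 FPKM with probucol against 238 FPKM untreated, a ratio of 0.991 (0.917 to 1.07). B cells express Bcl6 as well, and the B cell genes summed to 61.8 FPKM with probucol against 22.1 FPKM untreated.

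Upstream of STAT4, Il12rb1, the shared chain of the interleukin 12 and 23 receptors, had 8.43 FPKM with probucol against 9.44 FPKM untreated, a ratio of 0.893 (0.653 to 1.20). The inducible chain Il12rb2 was under the filter at 0.293 FPKM with probucol against 0.547 FPKM untreated. Of 10 STAT4 targets 3 were higher and 7 lower, and 1 was at least 2-fold lower. Over all genes 52.7% were higher, 47.3% lower and 1.98% at least 2-fold lower. The median of the 10 was -0.10, against 0.02 over all genes. Il18r1, a chain of the interleukin 18 receptor, had 16.1 FPKM with probucol against 21.2 FPKM untreated, 1.32-fold lower (1.15 to 1.52). Gadd45g, a stress-induced gene that feeds p38 signalling in Th1 cells, was 1.72-fold higher (1.36 to 2.16). Irf1 had 300 FPKM with probucol against 301 FPKM untreated, a ratio of 0.996 (0.934 to 1.06).

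Receptors of STAT5 had the highest summed level of the receptor lists, led by Il2rg, the common gamma chain. Over 8 genes the median was 0.04, with 5 higher and 3 lower, where 52.7% and 47.3% of all genes were. Il7r, the receptor for the survival cytokine interleukin 7, had 119 FPKM with probucol against 151 FPKM untreated, 1.27-fold lower (1.21 to 1.34). Il2rb had 221 FPKM with probucol against 252 FPKM untreated, a ratio of 0.878 (0.849 to 0.909). Il3ra, the interleukin 3 receptor chain, had 5.58 FPKM with probucol against 5.47 FPKM untreated, a ratio of 1.02 (0.59996 to 1.79). Of 18 STAT5 targets, 8 were higher and 10 lower, where 52.7% and 47.3% of all genes were, and the median was -0.07. Past the smaller threshold were 3 higher and 4 lower, where 17.8% and 14.1% of all genes were. Bcl2, which restrains cell death, had 109 FPKM with probucol against 58.2 FPKM untreated, 1.87-fold higher (1.79 to 1.96). Gzmb, a cytotoxic granule protease, was 2.60-fold lower (2.21 to 3.07), and the kinase gene Pim1 had 126 FPKM with probucol against 176 FPKM untreated, 1.40-fold lower (1.30 to 1.504). Natural killer cells also express Gzmb, and natural killer genes summed to 7.78 FPKM with probucol against 18.0 FPKM untreated. Cish, a STAT5-induced inhibitor of interleukin 2 signalling, had 66.2 FPKM with probucol against 62.2 FPKM untreated, a ratio of 1.06 (0.993 to 1.14).

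Of 10 STAT6 targets, 7 were lower with probucol and 3 higher, where 47.3% of all genes were lower. Il4ra, the interleukin 4 receptor chain that docks STAT6, had 66.7 FPKM with probucol against 75.3 FPKM untreated, a ratio of 0.885 (0.810 to 0.968), and it is also counted among the targets. Il13ra1, which pairs with it in the interleukin 13 receptor, had 0.772 FPKM with probucol against 1.252 FPKM untreated, with an interval that held 1 (0.365 to 1.01). Il2rg, which pairs with Il4ra in T cells, had 1513 FPKM with probucol against 1447 FPKM untreated, a ratio of 1.05 (1.02 to 1.07). The median log2 ratio of the targets was -0.17. Past the smaller threshold were 1 higher, Bcl6 (1.48-fold, 1.255 to 1.74), and 3 lower, where 17.8% and 14.1% of all genes were. The list does not separate genes that STAT6 induces from genes that it represses. The chemokine receptors Ccr8 and Ccr4 were 1.91-fold (1.69 to 2.16) and 1.71-fold lower (1.24 to 2.40). Klf2, a factor of naive T cells that is reduced upon activation, was 1.27-fold lower (1.21 to 1.33). Il4 had 7.74 FPKM with probucol against 7.79 FPKM untreated, a ratio of 0.993 (0.571 to 1.75), and Il5 and Il13 were listed at 0 in both libraries.

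Of the JAK kinases, 3 of 4 were higher with probucol, where 52.7% of all genes were. Jak2 had 26.7 FPKM with probucol against 21.2 FPKM untreated, 1.26-fold higher (1.15 to 1.38). Jak1, at 237 FPKM with probucol against 213 FPKM untreated, and Jak3, the kinase of the common gamma chain, at 89.7 FPKM with probucol against 80.4 FPKM untreated, were 1.12-fold (1.02 to 1.22) and 1.11-fold higher (1.06 to 1.17). Tyk2, which serves the interferon and interleukin 12 receptors, had 25.5 FPKM with probucol against 26.2 FPKM untreated, a ratio of 0.972 (0.893 to 1.06).

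Of the feedback inhibitors and phosphatases 14 of 17 were higher with probucol, where 52.7% of all genes were, with a median of 0.09. Past the smaller threshold were 3 higher and 2 lower, shares near the 17.8% and 14.1% of all genes. Ptpn6, which encodes the phosphatase SHP-1, had 441 FPKM with probucol against 269 FPKM untreated, 1.64-fold higher (1.48 to 1.82). Socs6 was 1.35-fold higher (1.07 to 1.72), and Socs2 had 7.52 FPKM with probucol against 11.3 FPKM untreated, 1.51-fold lower (1.05 to 2.19). Ptpn1 and Socs1, the main brake on interferon gamma and interleukin 2 signalling, were at 1.01 of their untreated level (0.878 to 1.16 and 0.955 to 1.07). Among partners and coactivators 7 of 11 were higher, where 52.7% of all genes were, with a median of 0.07. The acetyltransferase gene Crebbp had 12.2 FPKM with probucol against 7.52 FPKM untreated, 1.62-fold higher (1.29 to 2.03), and Nr3c1, the glucocorticoid receptor, 1.34-fold higher (1.17 to 1.53). Jun was 1.28-fold lower (1.19 to 1.37). B cells and myeloid cells also express Ptpn6. The summed B cell level was 61.8 FPKM with probucol against 22.1 FPKM untreated. Macrophage genes had 178 FPKM with probucol against 170 FPKM untreated, and neutrophil genes 1030 FPKM with probucol against 922 FPKM untreated. The part of these cells in the values of this paragraph was not tested.

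**Figure D4:**
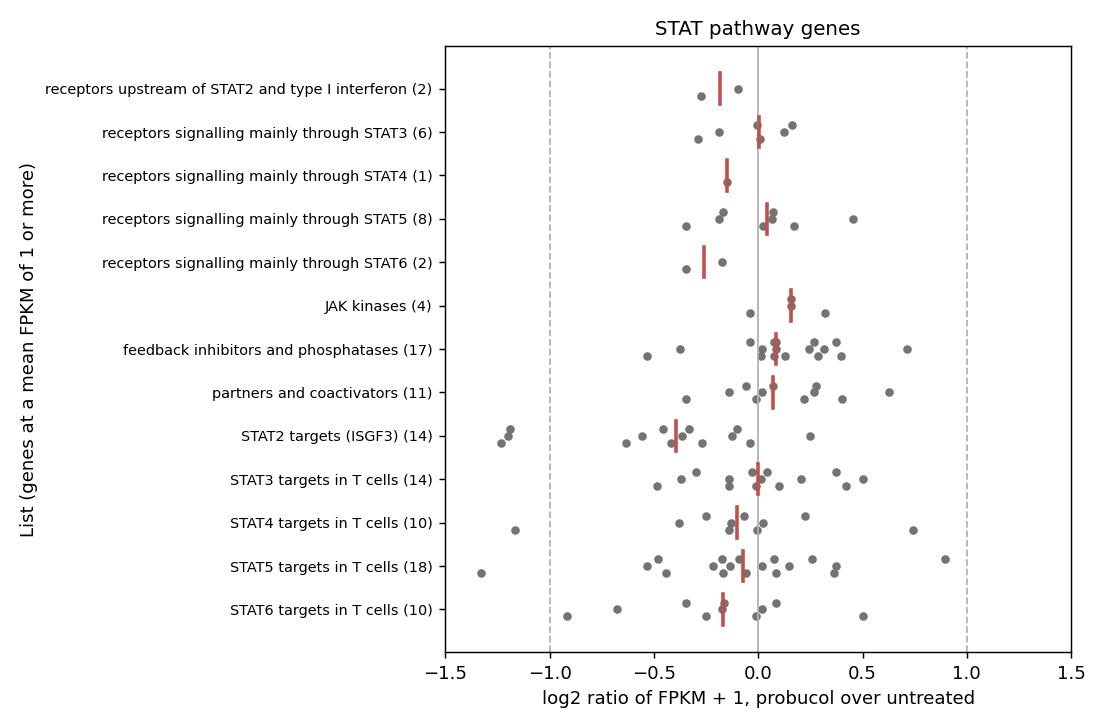
log2 ratio of FPKM + 1, probucol over untreated, of each gene (points, spread vertically to be seen) in 13 lists of STAT pathway genes, with the number of genes at a mean of 1 FPKM or more in brackets; red lines are medians and dashed lines mark 2-fold. The STAT2 target list has the lowest median, -0.39, and the JAK kinases the highest, 0.16.

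Of the 10 protein-coding genes within 100000 bases of the Stat5b, Stat5a and Stat3 cluster, 9 had a value. They lay on both sides of no difference. Kat2a, an acetyltransferase gene, had 25.3 FPKM with probucol against 20.8 FPKM untreated, and Dhx58, a cytosolic RNA sensor of the interferon response, had 9.37 FPKM with probucol against 12.8 FPKM untreated. Both were chosen after their values were seen.

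The genes nearest to each STAT in level over the 2 libraries were found by the Euclidean distance of log2 of FPKM + 1 among 18169 symbols. They were Kctd13 and Unc93b1 for Stat2, Irgm1 and Rbck1 for Stat3, and Uba2 and Stx5a for Stat4. For Stat5a they were Scap and Krtcap3, for Stat5b Tor2a and Rbfa, and for Stat6 Sf3b1 and Nxf1. The distances ran from 0.00439 for Uba2 to 0.0418 for Nxf1. With 2 libraries such closeness is a matter of level alone.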

How the data were processed

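The deposited values are FPKM, 1 per symbol and library, per the file headers, made by the authors from total RNA amplified with SMART-Seq HT and Nextera kits, per the labels' protocols. The submitters' processing notes name TopHat2 2.1.1, Bowtie2, Cuffdiff 2.2.1 and mm10, without roles; gene annotation and scaling between libraries: not given in the sources used here. No count model was fitted. Ratios were taken on FPKM + 1 for all counts and medians, and on FPKM for folds of single genes, over genes with a mean FPKM of 1 or more. Fragments were estimated from steps in low values of genes with a single annotated transcript (76.8% with probucol and 76.2% untreated within 0.1 of a whole number, 20% by chance; 200 bases subtracted), with GENCODE release M21 lengths for 23310 symbols. Intervals are exact binomial or, for levels, exact Poisson, at 95%; ratios of ratios use the conditional odds ratio (scipy 1.17.1). Calculations used Python 3.11.15 and Biopython 1.88 for alignments. They were also run on simulated data, made with the same median lengths and Poisson counting. Such data cannot test the choice of transcript length or spread beyond counting error. The members and lists were chosen with earlier results of these data known. Named by rule were all 6 members, list genes at a mean FPKM of 5 or more with a log2 ratio past 0.32 (up to 4) or nearest to no difference, and the 2 nearest genes per member; other list genes were chosen after their values were seen. Coding sequences were compared in place of proteins. Other members of the STAT family are not reported here.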

Additional observations from a re-analysis of the deposited data

How the results depend on the processing

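With 1 library per group no replicate could be left out. No paired analysis was possible because each group has 1 library and the labels give no replicate numbers. Across the other pseudocounts, 4 rescalings or centrings (1 of them, to equal T cell markers, chosen after seeing the data) and removal of the trend on length and GC content, the log2 ratio stayed between 0.23 and 0.30 for Stat6 and between -0.17 and -0.04 for the 5 lower members. Each kept its sign and moved by less than its counting interval. No member passed a log2 ratio of 0.32 in any of them. The count of pathway genes at least 2-fold lower was 5, and became 1 with pseudocount 5 and 2 when a mean of 5 FPKM was required. That of pathway genes past 0.32 lower was 24, and became 15 with pseudocount 5. Over all genes, at least 2-fold higher and lower were 313 and 357 with pseudocount 0.1, and 55 and 64 with pseudocount 5. Past 0.32 were 1898 higher and 1500 lower genes, which became 2467 and 2916 without the filter on low values. The intervals of Stat3 and Stat4 reached past 1 by the median transcript length and ended at 0.932 and 0.987 by the longest. Depth limits Stat2 most, with about 97 fragments with probucol and 105 untreated by the median length, and 648 with probucol and 698 untreated by the longest.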
